A study of Mus musculus with 8 samples.

Results

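Abl1, Bcr and 8 genes whose proteins relay or limit the signal of the BCR-ABL1 kinase (Abl2, Crk, Crkl, Grb2, Gab2, Shc1, Sos1 and Cbl) were examined in RNA-sequencing data of haematopoietic stem and progenitor cells from normal and CML-affected mice. The 10 genes were chosen by name, with earlier results of these data known. Each of them had 1 row among the 20207 gene names of the deposited tables. All 10 passed the filter on low values, a total above 1 RPKM (reads per kilobase of transcript, scaled to the mapped reads of a library) over the 8 libraries, which left 12561 genes for testing. CML, chronic myelogenous leukaemia, is a disease of haematopoietic stem cells.

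CML-affected mice carried a Tal1-tTA transgene, in which regulatory sequence of Tal1 drives a tetracycline-controlled activator in blood stem and progenitor cells, together with a TRE-BCR-ABL1 transgene that is switched on when doxycycline is withdrawn. The study describes its normal mice as healthy littermates with Tal1-tTA alone. On that description both sets of mice had the activator and differed in the fusion gene. Whether it holds for every normal library, labelled as 2 or 6 months old, was not tested. From bone marrow, 3 populations were sorted: long-term (LT) stem cells, short-term (ST) stem cells and KLS- progenitors. Both stem populations were c-Kit+, lineage-, Sca-1+ and negative for CD48 and CD135, with CD150 present on LT and absent from ST cells, and the KLS- progenitors were c-Kit+, lineage- and Sca-1-. Normal mice gave 4 libraries, namely LT-HSC 1, ST-HSC and KLS- from mice labelled as 2 months old and LT-HSC 2 from mice labelled as 6 months old. CML-affected mice gave another 4, namely LT-CML 1, LT-CML 2, ST-CML and CML-KLS-, with no age in the labels. The labels name the strain as C57BL/6 for all 8 libraries, whereas the study's methods describe FVB/N mice of young adult age for this model, and the number of mice behind each library is not given in the sources used here. The p-values below therefore measure the spread between these libraries, part of which may be technical. Where stem cells are pooled, each group holds 2 LT libraries and 1 ST library, with no term for cell type. The SD and interval of a pooled group therefore include any difference between LT and ST cells.

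Estimated depth ran from 17.8 to 23.9 M reads per library, and the counting error behind a value of any of the 10 genes was between 2.62% and 7.04%. This error covers sampling of reads only. Of the sorting genes, Slamf1 and Ly6a followed the labels. Slamf1, which encodes CD150, was between 10.7 and 35.5 RPKM in the 4 LT libraries and between 0.955 and 2.87 RPKM in the other 4. Ly6a, a Sca-1 gene, was between 72.4 and 152 RPKM in the stem libraries against 8.16 RPKM in KLS- and 11.7 RPKM in CML-KLS-. Flt3, which encodes CD135, did not follow the gate. It was at 61.6 RPKM in ST-HSC and 71.6 in ST-CML, against 2.52 to 19.2 RPKM in the other libraries. Cd48 was lower in the stem libraries than in KLS- (174 RPKM) and CML-KLS- (129 RPKM). It still reached 41.8 RPKM in ST-HSC, 45.15 in ST-CML and 29.5 in LT-CML 2, all sorted as CD48-negative. The cause was not tested. LT-HSC 2 stood apart in neutrophil genes, with a summed level of S100a8, S100a9, Ltf, Camp and Ngp of 3855 RPKM against 12.7 to 1003 RPKM in the other 7 libraries. Mpo, Elane, Prtn3, Ctsg and Cebpe, genes of committed myeloid progenitors, summed to 2829 RPKM in LT-CML 2 and 1767 RPKM in ST-CML against 95.3 to 311 RPKM in the other 4 stem libraries, and to 12962 and 20625 RPKM in KLS- and CML-KLS-. Y-linked Ddx3y was above 1 RPKM in 2 libraries, LT-HSC 2 with 31.0 RPKM and LT-CML 2 with 17.5 RPKM. The part of other cell types and of sex in the differences below was not tested, disease and any difference in age or strain between the mice cannot be told apart, and values without LT-HSC 2 stand beside the pooled stem results of those of the 10 genes that were highest in it.

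BCR-ABL1 is the fusion kinase that drives CML. It joins the amino-terminal part of BCR, which lets the protein oligomerize, to the tyrosine kinase ABL1 without the end of ABL1 that normally keeps it inactive. Once BCR is phosphorylated on tyrosine, the adaptor GRB2 binds it and brings in the RAS exchange factor SOS1 and the docking protein GAB2, which recruits PI3K, while SHC1, CRK, CRKL and the ubiquitin ligase CBL are further binding partners or substrates of the kinase.

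The fusion gene of these mice is human, whereas the values are for mouse genes. In the usual fusion transcripts, BCR exon 13 or exon 14 is joined to ABL1 exon 2, so the mouse sequences at the matching edges are shown to mark which parts of each mouse gene have a counterpart in the transgene. In the mm9 genome (GENCODE M1 annotation), mouse Abl1 (ENSMUSG00000026842.9) lies on the plus strand at chr2:31543896-31659747 and has 11 exons in its reference transcript, and Bcr (ENSMUSG00000009681.8) lies on the plus strand at chr10:74523641-74647668 with 23 exons. The lines give the first 60 bases of Abl1 exon 2 (174 bases, coding, shared by 4 long coding transcripts), at chr2:31633854-31633913, then the last 60 bases of Bcr exon 13 at chr10:74622576-74622635 and all 75 bases of Bcr exon 14 at chr10:74623075-74623149, each read on the plus strand.
Abl1 exon 2: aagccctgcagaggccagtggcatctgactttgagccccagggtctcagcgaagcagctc
Bcr exon 13: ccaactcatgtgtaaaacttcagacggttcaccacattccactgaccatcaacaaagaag
Bcr exon 14: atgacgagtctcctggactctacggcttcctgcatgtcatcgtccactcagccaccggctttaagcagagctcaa
Exons from exon 2 onwards made up 54.4% of all annotated exon bases of Abl1, and exons up to exon 14 made up 44.5% of those of Bcr. The sources used here do not say whether the transgene was in the mapping reference or how reads with more than 1 match were counted, so reads of the human fusion and of the mouse genes cannot be told apart in these values. Of the 10 genes, Abl1 was the only one whose exons overlap other annotated genes: Gm13427 on the opposite strand by 94 bases and a locus on the same strand, also named Abl1 in the annotation, by 264 bases.

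Mouse Abl1, which encodes the normal ABL1 kinase, was at a similar level in the CML and normal stem libraries and fell in the KLS- progenitors. It was at 4.48 RPKM in LT-HSC 1, 4.12 in LT-HSC 2 and 3.60 in ST-HSC. It was at 4.05 RPKM in LT-CML 1, 3.93 in LT-CML 2 and 4.70 in ST-CML. The stem groups overlapped, with a mean of 4.22 ± 0.415 RPKM in CML stem cells (SD, n = 3) and 4.07 ± 0.440 RPKM in normal HSCs (SD, n = 3). The difference on the log2(RPKM + 1) scale, which understates changes of low genes, was 0.04 (95% interval -0.30 to 0.39, adjusted p = 0.938 from limma), and between LT-CML and LT-HSC it was -0.09 (interval -0.53 to 0.36, adjusted p = 0.927). KLS- was at 3.04 RPKM and CML-KLS- at 2.27 RPKM, both below all 6 stem libraries. In bulk libraries such as these, fewer cells of a type with the transcript and less transcript per cell cannot be told apart. With disease as a covariate, Abl1 was lower in KLS- progenitors than in stem cells by a log2 difference of -0.50 (SE 0.15, adjusted p = 0.0235 from limma). This call was lost with quantile normalization (adjusted p = 0.166), with ST cells alone as the reference (0.0568), without ST-CML (0.0946) and without CML-KLS- (0.295), and over all alternatives the adjusted p lay between 0.0165 and 0.295.

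Bcr, the gene of the other fusion partner, was the steadiest of the 10. Its lowest value was 2.61 RPKM in CML-KLS- and its highest 3.49 RPKM in ST-CML, a ratio of 1.34. LT-HSC 1 was at 2.77 RPKM, LT-HSC 2 at 2.88, ST-HSC at 3.48 and KLS- at 2.90, against 3.37 in LT-CML 1 and 2.66 in LT-CML 2. Both groups had their highest stem value in the ST library. The log2 difference between CML stem cells and normal HSCs was 0.04 (95% interval -0.32 to 0.41, adjusted p = 0.941 from limma), between LT-CML and LT-HSC 0.06 (interval -0.40 to 0.53, adjusted p = 0.951), and between KLS- and stem cells -0.16 (SE 0.13, adjusted p = 0.347). These intervals hold changes of up to about 0.4 in the pooled stem comparison, which the 3 libraries of each group, 2 LT and 1 ST, could not resolve.

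Abl2 (mm9 chr1:158488917-158579699, plus strand), the paralog of Abl1 and the other member of the ABL kinase family, fell further in progenitors than Abl1 did in size of the fitted difference, and no test compared the genes. In normal stem cells it was at 4.16 RPKM in LT-HSC 1, 4.72 in LT-HSC 2 and 3.74 in ST-HSC, and in CML stem cells at 3.82 in LT-CML 1, 3.83 in LT-CML 2 and 3.57 in ST-CML. KLS- was at 2.43 RPKM and CML-KLS- at 1.48 RPKM, the lowest value of all 10 genes in any library. The stem groups overlapped (log2 difference -0.13, SE 0.14, adjusted p = 0.779 from limma, and -0.06 without LT-HSC 2, its highest library), whereas both KLS- libraries lay below all 6 stem libraries (log2 difference -0.74, SE 0.14, adjusted p = 0.00245). Without CML-KLS- the KLS- difference was -0.58 with an adjusted p of 0.0633, the 1 setting of 17 in which the call was lost.

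**Figure D1:**
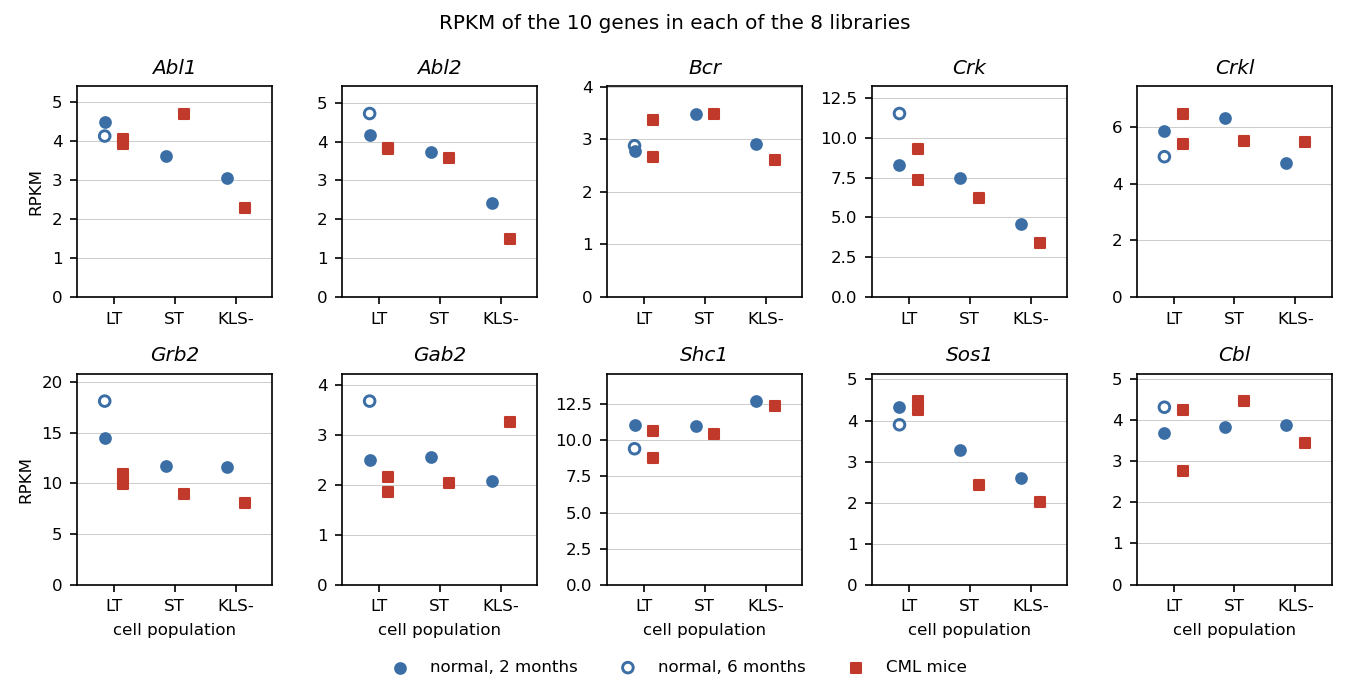
RPKM (vertical axes, from 0, a scale of its own for each gene) of the 10 genes in LT, ST and KLS- cells, 1 point per library: filled circles, normal mice labelled as 2 months old; open circle, LT-HSC 2 from mice labelled as 6 months old; squares, CML-affected mice. Abl1, Abl2 and Crk are lower in both KLS- libraries than in all 6 stem libraries, and Grb2 and Gab2 are lower in all 3 CML stem libraries than in all 3 normal ones.

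Grb2 (mm9 chr11:115505359-115569911, minus strand), the adaptor that links phosphorylated BCR to SOS1 and GAB2, was lower in every CML stem library than in every normal stem library. It was at 14.5 RPKM in LT-HSC 1, 18.1 in LT-HSC 2 and 11.8 in ST-HSC. It was at 9.98 RPKM in LT-CML 1, 10.9 in LT-CML 2 and 8.90 in ST-CML. The groups did not overlap, with means of 14.8 ± 3.20 and 9.92 ± 0.990 RPKM (SD, n = 3 each). The log2 difference of -0.52 (SE 0.18, 95% interval -0.94 to -0.09) did not pass adjustment over all genes (adjusted p = 0.279 from limma). An exact permutation test gave p = 0.1 (two-sided), the smallest that 3 against 3 libraries allow. Groups without overlap always give this value, so it adds nothing to the lack of overlap. LT-HSC 2, the library with the high neutrophil genes, had the highest Grb2, and without it the log2 difference was -0.37 (adjusted p = 0.461). In a fit of all 8 libraries with cell type as a covariate Grb2 passed (log2 difference -0.51, adjusted p = 0.0367), the only 1 of 15 alternatives in which it did, and the adjusted p ranged up to 0.563. Grb2 in progenitors was at 11.6 RPKM in KLS- and 8.02 RPKM in CML-KLS-, 1 library each, again lower in the CML library. The log2 difference between KLS- and stem cells was -0.23 (SE 0.14, adjusted p = 0.182 from limma), and against LT cells alone it was -0.39 and passed (adjusted p = 0.0486). Between LT-CML and LT-HSC the difference in Grb2 was -0.59 (SE 0.20, adjusted p = 0.292).

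Gab2 (mm9 chr7:104230261-104457450, plus strand), the docking protein that couples GRB2 to PI3K and SHP2, was the other gene whose stem groups did not overlap. It was at 2.495 RPKM in LT-HSC 1, 3.68 in LT-HSC 2 and 2.56 in ST-HSC, against 2.16 in LT-CML 1, 1.85 in LT-CML 2 and 2.04 in ST-CML. The log2 difference of -0.36 (SE 0.16) did not pass (adjusted p = 0.418 from limma), and without LT-HSC 2 it was -0.23 (adjusted p = 0.599). The exact permutation p was 0.1, again the smallest possible and fixed by the lack of overlap. In progenitors the order was the opposite, with 2.09 RPKM in KLS- and 3.25 RPKM in CML-KLS-, a ratio of 1.56 from 1 library each. The difference between the disease effects in KLS- and in stem cells was 0.79 on the log2 scale (SE 0.36, 95% interval -0.04 to 1.63, adjusted p = 0.99998 from limma), and since the KLS- effect is 1 library against 1, its spread is assumed to be that of the LT duplicates. Across all genes 3 passed this interaction test, 0.0239% of the 12561 tested, and 400 had an unadjusted p under 0.05, and none of the 10 genes was among the 3.

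Across the 10 genes, none passed an adjusted p of 0.05 from limma between CML stem cells and normal HSCs, where 2.34% of all genes tested did, and none between LT-CML and LT-HSC, where 1.73% did. Grb2 was the only one with an unadjusted p under 0.05, in both comparisons, as were 1573 and 1452 of all genes. Stem groups that did not overlap were found in 2 of the 10 genes and in 18.3% of all genes, so the share in the list was near the background. The median log2 difference of the 10 was -0.07 in the pooled comparison (3 positive and 7 negative) against -0.04 over all genes, and -0.13 against -0.01 between LT-CML and LT-HSC. Both comparisons share the 2 LT-HSC and the 2 LT-CML libraries.

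**Figure D2:**
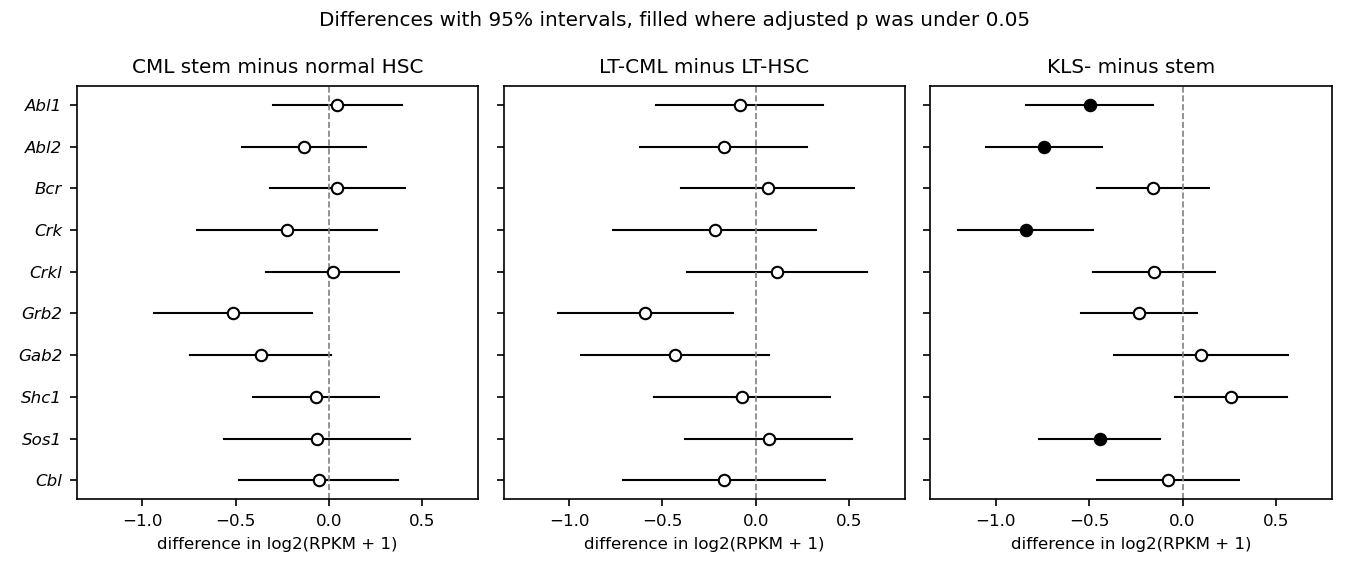
Differences in log2(RPKM + 1) with 95% intervals from limma for the 10 genes: CML stem cells minus normal HSCs (left, 3 against 3 libraries), LT-CML minus LT-HSC (middle, 2 against 2) and KLS- minus stem cells with disease as a covariate (right, 2 against 6). Filled points passed an adjusted p of 0.05: none in the left and middle panels, and Abl1, Abl2, Crk and Sos1, all negative, in the right panel.

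Crk (mm9 chr11:75492761-75520410, plus strand), an adaptor of SH2 and SH3 domains that is phosphorylated by ABL kinases, showed the widest range of the 10 genes, from 3.37 RPKM in CML-KLS- to 11.5 RPKM in LT-HSC 2, a ratio of 3.42. The other normal libraries were at 8.29 RPKM in LT-HSC 1, 7.47 in ST-HSC and 4.59 in KLS-. The CML stem libraries were at 9.29 RPKM in LT-CML 1, 7.33 in LT-CML 2 and 6.23 in ST-CML, which overlapped the normal ones (log2 difference -0.22, SE 0.21, adjusted p = 0.742 from limma; without LT-HSC 2, -0.06 with an adjusted p of 0.948). Both KLS- libraries lay below all 6 stem libraries, and the log2 difference of -0.84 (SE 0.16, adjusted p = 0.00275) passed in all 17 alternatives, with adjusted p between 0.00158 and 0.0484. Within each disease state Crk was highest in LT, lower in ST and lowest in KLS- cells.

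Crkl (mm9 chr16:17452080-17486348, plus strand), the paralog of Crk and the major tyrosine-phosphorylated adaptor of CML cells, did not share this pattern. It was at 5.87 RPKM in LT-HSC 1, 4.95 in LT-HSC 2, 6.31 in ST-HSC and 4.74 in KLS-, and at 6.48 in LT-CML 1, 5.39 in LT-CML 2, 5.51 in ST-CML and 5.48 in CML-KLS-. The stem groups overlapped, CML-KLS- lay inside the stem range and KLS- just below it, and no test passed (log2 difference 0.02 with 95% interval -0.34 to 0.38 between CML stem cells and normal HSCs, adjusted p = 0.978 from limma; -0.15 with interval -0.48 to 0.18 between KLS- and stem cells, adjusted p = 0.405). The ratio of Crk to Crkl within a library, which does not depend on the scaling of that library, was 1.41 in LT-HSC 1, 2.33 in LT-HSC 2, 1.43 in LT-CML 1 and 1.36 in LT-CML 2. It was 1.18 in ST-HSC, 1.13 in ST-CML, 0.967 in KLS- and 0.615 in CML-KLS-. Crk was thus above Crkl per length in the 6 stem libraries and below it in both KLS- libraries, and the order LT, ST, KLS- held without overlap. The ratio of Abl1 to Abl2 lay between 0.873 and 1.32 in the stem libraries and was 1.25 in KLS- and 1.53 in CML-KLS-, with ST-CML inside the KLS- range. These ratios are descriptions, with no test.

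**Figure D3:**
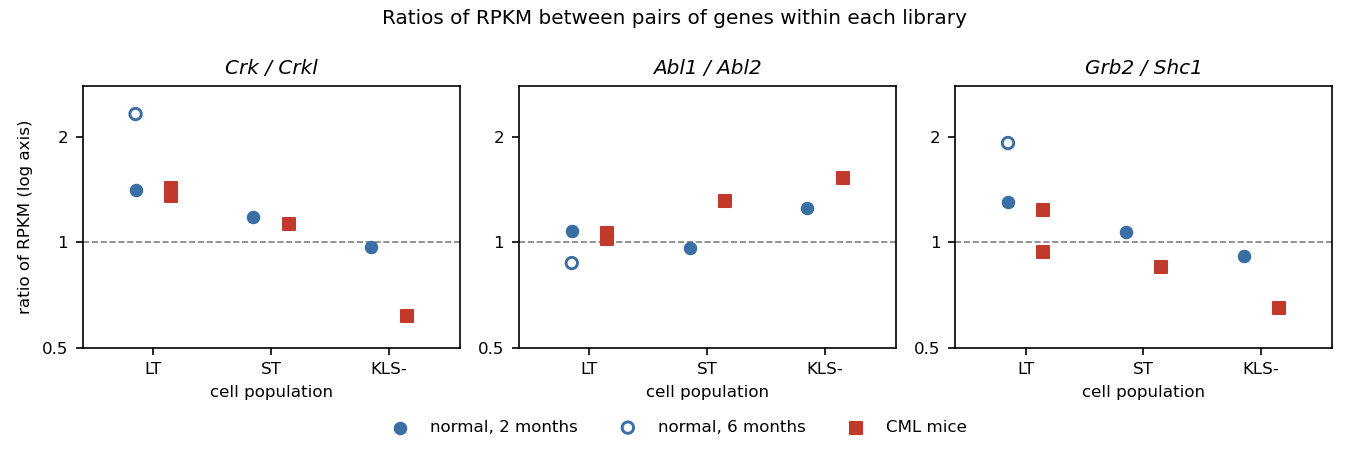
Ratio of RPKM (vertical axes, log scale) between Crk and Crkl, Abl1 and Abl2, and Grb2 and Shc1 in each library; symbols as in the plot of RPKM by library, and the dashed line marks a ratio of 1. Crk/Crkl is above 1 in the 6 stem libraries and below 1 in both KLS- libraries, from 2.33 in LT-HSC 2 to 0.615 in CML-KLS-.

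The promoters of Abl2 and Crk are shown because these genes gave the largest falls in progenitors. The sequences are the 250 bases before the gene start in RefSeq (GRCm38.p6), read on the plus strand, from chr1:156558537-156558786 for Abl2 and chr11:75679009-75679258 for Crk, and capitals mark the GC box GGGCGG or its complement CCGCCC.
Abl2: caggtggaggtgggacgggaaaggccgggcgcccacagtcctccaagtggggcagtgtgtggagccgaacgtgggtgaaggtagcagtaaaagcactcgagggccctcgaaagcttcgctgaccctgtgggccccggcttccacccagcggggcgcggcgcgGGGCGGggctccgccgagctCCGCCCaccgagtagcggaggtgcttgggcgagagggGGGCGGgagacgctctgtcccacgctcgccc
Crk: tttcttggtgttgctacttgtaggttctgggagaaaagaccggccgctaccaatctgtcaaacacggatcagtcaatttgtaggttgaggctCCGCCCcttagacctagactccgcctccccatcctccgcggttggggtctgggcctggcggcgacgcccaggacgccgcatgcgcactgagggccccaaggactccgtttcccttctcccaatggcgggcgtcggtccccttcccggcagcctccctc
The GC box was searched on both strands. Abl2 held 3 and Crk 1, and 32.9% of the 27025 promoters of this length held at least 1. Promoter entries were found for 9 of the 10 genes, not for Gab2, and among those that did not pass the test in progenitors Bcr held 4 and Cbl 3, so the letters did not separate the genes. The ETS core CCGGAA was absent from these windows of Abl2 and Crk, and present in those of Cbl, Crkl and Sos1 and in 12.2% of all. Of these, Sos1 passed the test in progenitors, and Cbl and Crkl did not. The E-box CACGTG was in none of the 9 genes and 6.05% of all, and the STAT-type site TTCNNNGAA in none of the 9 and 7.18% of all.

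Shc1 (mm9 chr3:89222365-89233937, plus strand), an adaptor that GRB2 binds once it is phosphorylated, moved the other way from Crk. It was at 11.1 RPKM in LT-HSC 1, 9.43 in LT-HSC 2, 10.98 in ST-HSC, 10.6 in LT-CML 1, 8.79 in LT-CML 2 and 10.5 in ST-CML, and at 12.7 in KLS- and 12.4 in CML-KLS-. Both KLS- libraries were above all 6 stem libraries, but the log2 difference of 0.26 (SE 0.13) did not pass (adjusted p = 0.133 from limma), nor did that between CML stem cells and normal HSCs (-0.07, 95% interval -0.41 to 0.27, adjusted p = 0.896). The ratio of Grb2 to Shc1 was 1.31 in LT-HSC 1 and 1.92 in LT-HSC 2, against 0.938 in LT-CML 1 and 1.24 in LT-CML 2. It was 1.07 in ST-HSC and 0.851 in ST-CML, and 0.912 in KLS- and 0.649 in CML-KLS-. In each population the CML libraries lay below the normal ones, narrowly in LT cells, where LT-CML 2 was at 1.24 and LT-HSC 1 at 1.31. ST and KLS- cells had 1 library of each kind. This ratio was not tested, and it reuses the Grb2 values given above.

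Sos1 (mm9 chr17:80793092-80879793, minus strand), the exchange factor that loads RAS with GTP, was lower in progenitors than in stem cells, with an overlap between the groups. LT cells had the highest levels, at 4.33 RPKM in LT-HSC 1, 3.90 in LT-HSC 2, 4.47 in LT-CML 1 and 4.25 in LT-CML 2. ST-HSC was at 3.29 RPKM, ST-CML at 2.42, KLS- at 2.59 and CML-KLS- at 2.01. The ST-CML value fell between those of the progenitors. The log2 difference between KLS- and stem cells was -0.44 (SE 0.14, adjusted p = 0.0294 from limma). Against ST cells alone it was -0.22 (adjusted p = 0.333), with quantile normalization -0.22 (0.229) and with no filter on low values the adjusted p was 0.0597. The call was also lost without ST-HSC (adjusted p = 0.105), without KLS- (0.0922) and without CML-KLS- (0.256), over a range from 0.00645 to 0.333. The pooled stem difference was -0.06 (SE 0.21, adjusted p = 0.938), with ST-CML the lowest and LT-CML 1 the highest of the 6 stem libraries.

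Cbl (mm9 chr9:43957345-44042129, minus strand), the ubiquitin ligase that targets active tyrosine kinases, showed no ordering by population or disease. It was at 3.70 RPKM in LT-HSC 1, 4.32 in LT-HSC 2, 3.83 in ST-HSC and 3.90 in KLS-, and at 4.24 in LT-CML 1, 2.77 in LT-CML 2, 4.47 in ST-CML and 3.43 in CML-KLS-. The lowest and the highest value were both in CML stem cells, and the groups overlapped (log2 difference -0.05, 95% interval -0.48 to 0.37, adjusted p = 0.939 from limma). Between KLS- and stem cells the difference was -0.08 (SE 0.17, adjusted p = 0.714).

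In the comparison of KLS- progenitors with stem cells, 4 of the 10 genes passed, all 4 lower, where 48.7% of all genes tested passed in either direction and 26.5% were lower. Both KLS- libraries lay below all 6 stem libraries in 3 of the 10 genes, Abl1, Abl2 and Crk, as in 27.7% of all genes. The 10 genes were thus not set apart from the background by these counts. Their median log2 difference was -0.20 against -0.08 over all genes. Without LT-HSC 2, and without both LT-HSC 2 and LT-CML 2, 4 passed; without CML-KLS- 1 passed (Crk), and with quantile normalization or ST cells alone as the reference 2 passed (Abl2 and Crk), and with LT cells alone 5 passed, with Grb2 the fifth.

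By median RPKM over the 8 libraries, a scale that corrects for transcript length, the order of the genes was Grb2 (11.2), Shc1 (10.8), Crk (7.40), Crkl (5.496), Abl1 (3.99), Cbl (3.86), Abl2 (3.78), Sos1 (3.59), Bcr (2.89) and Gab2 (2.33). Neighbours in this order often changed places between libraries. Grb2 was above Shc1 in 4 of 8 libraries, Abl1 above Cbl in 3, Cbl above Abl2 in 5, Abl2 above Sos1 in 3 and Sos1 above Bcr in 4, whereas Crkl was above Abl1 in 8 of 8 and Shc1 above Crk in 7. Abl2 and Crk followed each other most closely among the 10 (Pearson r = 0.950 of log2(RPKM + 1) over 8 libraries), then Abl1 and Abl2 (r = 0.905), and Shc1 ran against Abl2 (r = -0.735). These are descriptions over 8 libraries that share the difference between stem and progenitor cells.

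Among 10033 genes with a mean of at least 1 RPKM, those most like Abl1 over the 8 libraries were Camk1 (r = 0.956), Stim1 (0.949) and Tmem159 (0.948). Those most like Abl2 were Rchy1 (0.991), Malat1 (0.990) and Zcchc11 (0.989), and those most like Crk were Fbxw7 (0.985), Khdrbs3 (0.983) and Chmp2b (0.982). All 9 were at their lowest in CML-KLS- and second lowest in KLS-, as were Abl1, Abl2 and Crk themselves. Those most like Bcr were Zfp157 (0.980), Zfp873 (0.978) and Kif3c (0.972), which were higher in ST-HSC, ST-CML and LT-CML 1 than in the other libraries, as was Bcr. Genes picked by their correlation with a gene tend to share its order, so these orders are no separate result. Both KLS- libraries lay below all 6 stem libraries in 27.7% of all genes.

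Around the 10 genes, 7 lists of the pathway were examined, which were also chosen with earlier results of these data known. Transcripts that ERK signalling is known to induce, which are readouts of the RAS branch and mostly encode its feedback inhibitors, had negative differences in 9 of 9 tested genes between CML stem cells and normal HSCs, with a median of -0.39 against -0.04 over all genes. None of the 9 passed in limma, and 4 had an unadjusted p under 0.05, as had 12.5% of all genes. Without LT-HSC 2, which had the highest stem value of several of these genes, the 9 differences were negative with a median of -0.25, and 2 had an unadjusted p under 0.05. Spry1, an inhibitor of RAS activation, was at 10.9, 12.4 and 11.2 RPKM in LT-HSC 1, LT-HSC 2 and ST-HSC and at 4.73, 8.56 and 4.81 RPKM in LT-CML 1, LT-CML 2 and ST-CML (log2 difference -0.87, SE 0.22, adjusted p = 0.114 from limma). It passed without LT-CML 2 (-1.11, adjusted p = 0.0300) and in the fit of all 8 libraries (-0.85, adjusted p = 0.0214), over a range up to 0.352, and without LT-HSC 2 it was -0.82 (adjusted p = 0.271). Dusp6, an ERK phosphatase, was at -0.76 (adjusted p = 0.303) and passed in the fit of all 8 libraries (-0.88, adjusted p = 0.0301). The sign was negative in 9 of 9 between LT-CML and LT-HSC too, from LT libraries that both comparisons share, with a median of -0.55. None passed in limma and 5 had an unadjusted p under 0.05 (11.6% of all genes). Without LT-HSC 2, which left LT-HSC 1 alone in its group, the sign was negative in 8 of 9 with a median of -0.43. No p-values are given for that fit, so the count of 5 was not shown to hold without LT-HSC 2.

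In progenitors the differences of the same list were negative in 9 of 9 tested genes. Of these, 8 passed as lower, where 26.5% of all genes tested did. Their median log2 difference over the 9 was -0.998 against -0.08 over all genes. Without LT-HSC 2, 8 of 9 passed with a median of -0.93. Spry1 was at 1.51 RPKM in KLS- and 0.473 in CML-KLS- (log2 difference -2.23, SE 0.20, adjusted p = 7.51e-05 from limma). Dusp5, another ERK phosphatase, was lower by -1.81, Etv5, a transcription factor, by -1.44 and Dusp6 by -1.19. The call for Dusp6 was lost without CML-KLS- (adjusted p = 0.0609).

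Of the genes reported here, those of the other 6 lists passed only in the progenitor comparison, and 0 of them passed between CML and normal stem cells in either limma fit, where 4 of their 56 tested genes had an unadjusted p under 0.05 in the pooled comparison and 6 between LT-CML and LT-HSC. In progenitors 15 of the 56 passed, below the 48.7% of all genes that did. Of 7 tested paralogs of the 10 genes, Grap, a GRB2 relative, was higher (0.64) and Gab3, a GAB2 relative, lower (-0.53). Grap was low, at 0.105 to 0.627 RPKM in the stem libraries and 1.615 in CML-KLS-, and KLS- at 0.5865 RPKM lay inside the stem range. Without CML-KLS- the difference of Grap was 0.28 (adjusted p = 0.377), and without KLS- that of Gab3 was -0.26 (adjusted p = 0.307). Without ST-CML or ST-HSC the difference of Grap was 0.64 with an adjusted p of 0.0579 or 0.0544, and without ST-HSC that of Gab3 was -0.50 (0.0516). Of 15 tested docking proteins and ABL partners, Dok3 was higher (0.99), and Dok2, a negative regulator of RAS (-2.19), and Abi2, an ABL-interacting protein (-0.91), were lower. Dok2 went from 11 to 25.9 RPKM in the stem libraries to 2.91 and 4.23 RPKM in the KLS- libraries.

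Of 6 Src family kinases reported here, Lck (-1.52), Fyn (-1.42), Yes1 (-0.69, adjusted p = 0.0503 without KLS-) and Src (-0.26) were lower in progenitors. The Src call held in 6 of 16 alternatives and was lost, with differences between -0.28 and -0.25, without ST-HSC (adjusted p = 0.0957), KLS- (0.166), LT-CML 1 (0.0613), LT-CML 2 (0.0536), ST-CML (0.0777) or CML-KLS- (0.192). Src and Yes1 were at low levels, where the log2(RPKM + 1) scale understates changes. Src was at 0.1387 to 0.3355 RPKM in the stem libraries and at 0.0255 in KLS- and 0.0145 in CML-KLS-. Yes1 was at 0.5085 to 1.29 RPKM in the stem libraries and at 0.0544 in KLS- and 0 in CML-KLS-. Over all alternatives the Src difference lay between -1.40 and -0.13. Of 8 phosphatases, Ptpn12 (-0.95) and Ptprc, which encodes CD45 (-0.94), were lower. In the RAS to ERK list of 12, Rasa1, a GTPase-activating protein for RAS, was lower (-0.67, 0.0633 without CML-KLS-) and Hras was higher (0.36), and the Hras call held in 7 of 16 alternatives, with losses, at differences between 0.27 and 0.37, without LT-HSC 1 (adjusted p = 0.0649), LT-HSC 2 (0.0509), KLS- (0.168), LT-CML 1 (0.0588), ST-CML (0.150) and CML-KLS- (0.196). In the PI3K to AKT list, with 8 genes, the regulatory subunit Pik3r1 (-1.02) and the catalytic subunit Pik3ca (-0.57, 0.151 without CML-KLS-) were lower. The median pooled stem difference was 0.00 for paralogs, -0.03 for docking proteins, -0.18 for Src kinases, -0.09 for phosphatases, -0.11 for RAS to ERK and 0.07 for PI3K to AKT.

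**Figure D4:**
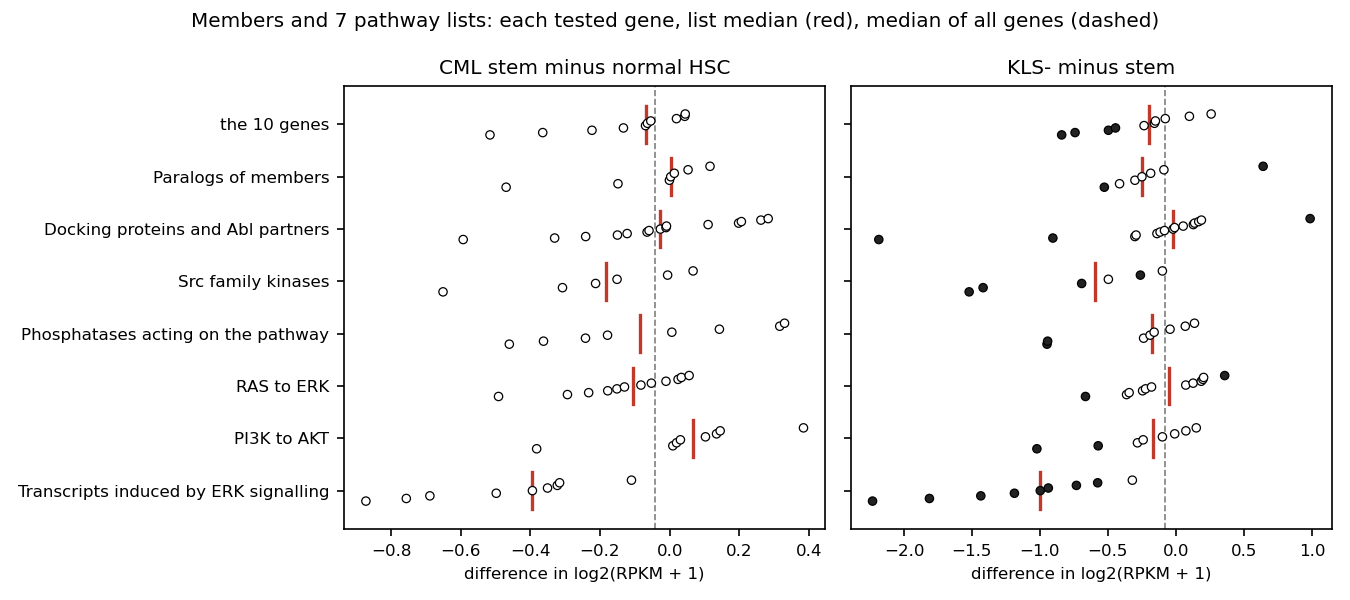
Differences in log2(RPKM + 1) of the 10 genes and of each tested gene of the 7 pathway lists, CML stem cells minus normal HSCs (left) and KLS- minus stem cells (right); the horizontal scales differ. Filled points passed an adjusted p of 0.05 from limma, red bars are list medians and the dashed line is the median of all 12561 genes. On the left no point is filled and the ERK-induced list has its median at -0.39, and on the right 8 of the 9 ERK-induced genes are filled.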

How the data were processed

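RNA of 6 sorted populations was sequenced in 8 libraries from oligo-dT-primed, amplified cDNA, and the authors mapped the reads to mm9 with a commercial service and deposited RPKM per gene. The annotation and counting rule are not given in the sources used here. RPKM are not counts, so no count model was run. Values were used as deposited on the log2(RPKM + 1) scale, for the 12561 genes whose values summed to more than 1 RPKM, with limma 3.58.1 in R 4.3.3 (eBayes with an intensity trend) and Benjamini-Hochberg adjustment at 0.05. CML stem cells were compared with normal HSCs (3 against 3), LT-CML with LT-HSC (2 against 2, 1 mean per population over 8 libraries), KLS- with the mean of LT and ST (disease as covariate), and the disease effects of KLS- and stem cells with each other. Steps were tested on simulated data. Depth was estimated from the steps of low RPKM values, which were whole within 2% in 78.4% of 6045 low genes, and from exon lengths of GENCODE M1.

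The 10 genes and the lists were chosen with earlier results of these data known. Named were the 10 genes; from each list and comparison, up to 4 genes with the largest differences among those with an adjusted p under 0.05, or with none the gene with the largest pooled difference; and the 3 genes most like Abl1, Bcr, Crk and Abl2. Some listed genes are not reported here and were left out of the list counts. Hras and Elane were matched under older symbols. Erythroid marker genes (6) summed to 530 to 2868 RPKM, B cell genes (4) to 0.397 to 9.52 and T cell genes (4) to 0.356 to 2.95. Stromal and endothelial genes (4) summed to 8.39 to 25.3 RPKM and stem cell gate genes (9) to 297 to 838. The stromal sum was nearly all Pecam1 (8.20 to 25.25 RPKM), with Cdh5, Col1a1 and Cxcl12 each at 0.217 RPKM or less. Car2 (494 to 1494 RPKM) was most of the erythroid sum in the stem libraries, and Hba-a1 was at 0 in every library. The gate genes include Cd48 and Flt3, which the gate excludes, and Cd34 and Kit, at 108 and 78.4 RPKM in KLS-. Their sum therefore does not measure the gate. Alternatives were the pseudocount (0.1), the filter, quantile and upper-quartile scaling, no trend, other samples or covariates, and each library left out. Python 3.11.15 was used for other steps.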

Additional observations from a re-analysis of the deposited data

How the results depend on the processing

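No called difference of the 10 genes or the named list genes changed sign in any alternative, whereas the uncalled pooled stem differences of Abl1, Bcr, Crkl, Shc1, Sos1 and Cbl changed sign in 1 to 3 of 15. The number of the 10 genes that passed was 0 in each pooled stem and LT setting but 1, the fit of all 8 libraries with cell type as a covariate (1, Grb2). In that fit 776 of all genes passed between CML stem cells and normal HSCs against 294, with LT or ST as a covariate 543, with no filter 193, without LT-HSC 2 and LT-CML 2 (chosen after seeing the data) 38, and with each library left out 115 to 217. Between LT-CML and LT-HSC 217 passed, with no filter 0, and with each library left out 6 to 225. In progenitors 6123 passed, without LT-HSC 2 and LT-CML 2 6494, with each library left out 3178 to 6338, and of the 10 genes 4 passed, with quantile normalization 2, against ST alone 2, against LT alone 5 and with each library left out 1 to 4. The interaction had 3 calls, with no intensity trend 1, and 0 with a pseudocount of 0.1, no filter, quantile or upper-quartile scaling or any LT library left out (400 genes had an unadjusted p under 0.05 in the reported fit). The causes of these changes were not tested. The interaction could not be fitted without ST-HSC, KLS-, ST-CML or CML-KLS-, nor, with the LT comparison, without LT-HSC 2 and LT-CML 2. No paired analysis was possible because the labels give replicate numbers to the LT-CML libraries alone. The 95% intervals of the 10 genes reached 0.333 to 0.498 to either side with 3 libraries a group and 0.446 to 0.545 with 2.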
